A study of Homo sapiens with 12 samples.

Results

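Transcription factors of the AP-1 and EGR families were analysed in A375, a human melanoma cell line established in culture that carries mutated BRAF, from the number of RNA-seq reads counted on each gene. The 10 genes are FOS, FOSB, FOSL1 and FOSL2 of the FOS family, JUN, JUNB and JUND of the JUN family, and EGR1, EGR2 and EGR3 of the EGR family. They were taken by symbol from a table of 44659 genes, and each had 1 row and no further copy. In the first experiment, cells were cultured for 24 h with MAPKi, which combined 500 nM vemurafenib, an inhibitor of BRAF, with 500 nM cobimetinib, an inhibitor of MEK, or with DMSO, the solvent. In the second, glutamine was left out of the medium for 24 h (Gln-depleted) or kept at 2 mM (CTRL). Each of the 4 groups had 3 libraries, 12 in all, and the control groups of the experiments were not shared. According to the labels the RNA was cytoplasmic, whereas the RNA-seq methods describe total RNA, and ribosomal RNA was depleted. The MAPKi experiment belongs to sequencing batch 2 and the Gln depletion experiment to sequencing batch 1, so each treatment was compared with its own control. In the Gln depletion experiment, replicate 1 of both groups belongs to experimental batch 1, and replicates 2 and 3 to experimental batch 2.

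AP-1 is a dimer of a FOS and a JUN protein, or of JUN proteins alone, that binds DNA through a basic leucine zipper. EGR proteins bind GC-rich sites through zinc fingers. Most of these genes are immediate-early genes, meaning that growth factors induce them within minutes and without new protein synthesis, largely because ERK phosphorylates the ternary complex factors that sit with SRF on CArG boxes. In melanoma cells with mutated BRAF the pathway from BRAF through MEK to ERK is constantly active. FOSL1 and EGR1 are known as genes that follow ERK activity, and JUN and its relatives are also under the control of the stress kinases of the JNK family.

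Promoter sequences are shown for EGR1, EGR2 and FOSL2. Among the genes with a promoter entry, only their windows matched the letters searched for a CArG box or an AP-1 site. They are 300 bases of RefSeq's GRCh38.p14 assembly, from 250 bases before to 50 bases after the annotated start of transcription, written 5′ to 3′ on the strand of the gene. Capitals mark CArG boxes in EGR1 and EGR2 and the AP-1 site in FOSL2. EGR2 has 3 annotated starts, and the third is shown. The regions are chr5:138465229-138465528 (plus strand), chr10:62816317-62816616 (minus strand) and chr2:28392608-28392907 (plus strand), in this order.
EGR1 promoter: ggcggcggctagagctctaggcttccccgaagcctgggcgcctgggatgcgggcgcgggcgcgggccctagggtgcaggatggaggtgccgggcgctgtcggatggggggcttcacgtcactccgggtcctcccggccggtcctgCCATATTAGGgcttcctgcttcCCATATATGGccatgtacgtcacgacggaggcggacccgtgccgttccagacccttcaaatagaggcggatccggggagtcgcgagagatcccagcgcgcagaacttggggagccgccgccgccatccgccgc
EGR2 promoter: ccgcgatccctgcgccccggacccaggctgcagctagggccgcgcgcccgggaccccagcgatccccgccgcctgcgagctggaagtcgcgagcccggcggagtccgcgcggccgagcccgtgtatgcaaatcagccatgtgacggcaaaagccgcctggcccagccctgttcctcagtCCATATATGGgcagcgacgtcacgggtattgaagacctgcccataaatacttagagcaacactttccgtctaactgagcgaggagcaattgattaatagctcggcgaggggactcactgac
FOSL2 promoter: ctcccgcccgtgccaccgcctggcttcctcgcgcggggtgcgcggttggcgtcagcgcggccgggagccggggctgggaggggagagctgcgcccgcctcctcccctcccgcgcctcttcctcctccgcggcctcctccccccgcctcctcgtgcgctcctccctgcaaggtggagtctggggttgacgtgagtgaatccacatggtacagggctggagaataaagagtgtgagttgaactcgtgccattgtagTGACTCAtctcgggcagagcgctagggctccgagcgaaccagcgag

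Promoters were in the table for 8 of the 10 genes, in 10 windows, and FOSL1 and EGR3 had no entry. EGR1 held 2 CArG boxes, from -105 to -96 (CCATATTAGG) and from -83 to -74 (CCATATATGG) relative to the start. EGR2 held 1, from -71 to -62 (CCATATATGG). Of 35116 promoters of the same length, 1.29% held a CArG box on either strand. The AP-1 site TGACTCA of FOSL2 lay at 5 to 11 bases after the start, and 4.95% of all promoters held this site or its reverse complement TGAGTCA. JUND held a cAMP response element, TGACGTCA, from -200 to -193, as did 1.85% of all promoters. FOSB held an ETS site, CCGGAA, from -205 to -200, which 17.2% of all promoters held. EGR sites (GCGTGGGCG or GCGGGGGCG, in 5.77% of all promoters) were found in none of these windows, but NAB2, which encodes a corepressor of EGR proteins, held one from -62 to -54. The windows of FOS, JUN and JUNB held none of the 5 elements as searched. Variants in other letters and sites outside the windows were not searched, so these genes may hold such elements. The elements searched do not overlap in these windows, and a match in letters describes the sequence only.

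Library totals ranged between 31056296 and 40071368 counted reads, with a median of 35748567. Replicate libraries were further apart than sampling noise, with a chi-square over its degrees of freedom between 4.74 and 15.6 in the MAPKi experiment and between 39.6 and 191 in the Gln depletion experiment. The MAPKi experiment is described as done in triplicate, and the Gln depletion experiment spans both experimental batches, but whether each library had its own culture is not given in the sources used here, so p-values measure the spread between these libraries, part of which may be technical. The non-coding RNA 7SK took 3.95% to 4.397% of counted reads with MAPKi and 1.93% to 2.15% with DMSO, without overlap, 1.55% to 2.25% in CTRL medium and 1.99% to 3.79% in Gln-depleted medium, highest in replicate 3. Its part in the results was not tested. A normalized count is a count divided by the library total and its TMM factor, and scaled to the mean total of the 12 libraries. The 10 markers of melanocytes and melanoma tested, among them SOX10 and PMEL, reached a mean normalized count of 10 in DMSO, MAPKi and CTRL libraries, and 9 did in Gln-depleted libraries, where MLANA had 3.60. Their summed level went from 72834 to 76888 with DMSO, from 355638 to 453093 with MAPKi, from 65663 to 67576 in CTRL medium and from 59867 to 66390 in Gln-depleted medium. These sums combine markers that went in different directions. DCT went from a mean of 7154 with DMSO to 278958 with MAPKi, while S100B went from 6189 to 1415. In Gln-depleted medium 9 of the 10 markers had lower means than in CTRL medium, MITF with 2093 against 10504, whereas ERBB3 had 34801 against 21061. Of markers of other cell types, 1 of 4 for keratinocytes, 2 or 3 of 6 for fibroblasts, 0 or 1 of 4 for leukocytes, 0 or 1 of 2 for epithelium and 1 of 3 for endothelium reached this level in a group. Their summed levels over the 12 libraries lay between 1235 and 3737 for keratinocytes, highest in Gln-depleted medium, 485 and 1013 for fibroblasts, 0 and 19.6 for leukocytes, 2.81 and 20.1 for epithelium and 74.4 and 326 for endothelium. Their part in the results was not tested. KRT5 and KRT1 of keratinocytes, CD3E of T lymphocytes and COL3A1 of fibroblasts were at 0 in all 12 libraries, but other markers of these lists were not. KRT10 of keratinocytes had group means from 1366 (DMSO) to 2911 (Gln-depleted). Among fibroblast markers, LUM had 112 (Gln-depleted) to 673 (DMSO), PDGFRA 162 (CTRL) to 408 (Gln-depleted) and COL1A1 9.91 (Gln-depleted) to 61.4 (MAPKi). PTPRC of leukocytes had 3.53 (Gln-depleted) to 15.8 (DMSO), and VWF of endothelium 126 (CTRL) to 305 (MAPKi). RNA levels per cell and the number of cells cannot be told apart in bulk samples.

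**Figure D1:**
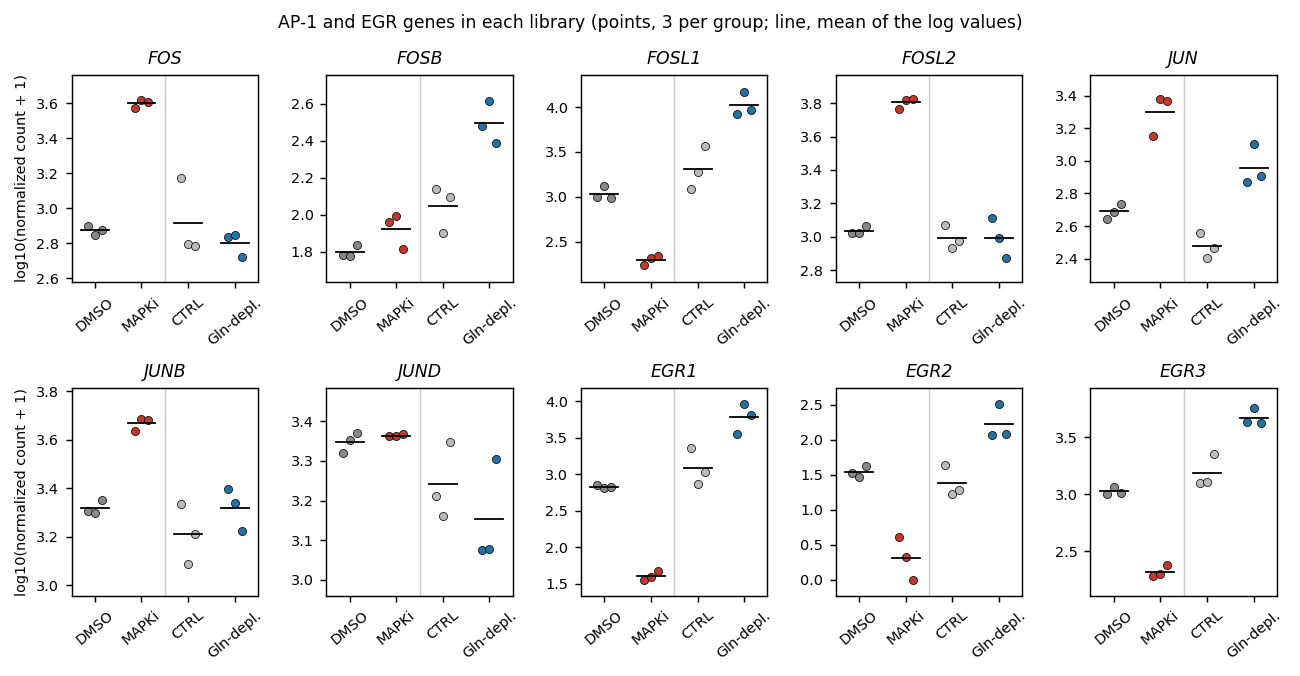
Level of each AP-1 and EGR gene in the 12 libraries, as log10 of the normalized count plus 1 (vertical axis, a log scale that differs between panels), with 1 point per library and a line at the mean of the log values. The MAPKi libraries lie above all DMSO libraries for FOS, FOSL2, JUN and JUNB and below them for FOSL1, EGR1, EGR2 and EGR3, and the Gln-depleted libraries (Gln-depl.) lie above all CTRL libraries for FOSB, FOSL1, JUN, EGR1, EGR2 and EGR3.

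The first comparison asks how the mRNA levels of these factors differed when BRAF and MEK were inhibited. All 10 genes passed the limit of a mean normalized count of 10, and 8 changed with MAPKi at an edgeR adjusted p of 0.05 or less. FOSL1, EGR1, EGR2 and EGR3 fell, while FOS, FOSL2, JUN and JUNB rose. Among all 12624 tested mRNAs, 38.9% were lower and 39.0% were higher at the same limit, so 4 of 10 in each direction is close to the background. Against a 1.5-fold change, the same 8 genes passed, where 18.4% of all mRNAs were lower and 17.1% were higher.

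Within the FOS family, members moved in opposite directions. FOSL1 (FRA-1; chr11:65892049-65900573, minus strand, GRCh38) had normalized counts of 1002, 1312 and 979.8 in the DMSO libraries and of 174, 205 and 221 in the MAPKi libraries. The groups did not overlap, and the level fell from 1098 ± 186 (SD, n = 3) to 199.9 ± 23.9 (SD, n = 3), a log2 fold change of -2.46 (standard error 0.13, adjusted p = 1.7e-07 in edgeR). FOS, the founding member of the family (chr14:75278826-75282230, plus strand), went the other way. Its normalized counts were 793, 705 and 747 with DMSO and 3745, 4158 and 4041 with MAPKi. Each MAPKi library exceeded every DMSO library, with a log2 fold change of 2.41 (standard error 0.059, adjusted p = 1.8e-09 in edgeR). FOSL2 (FRA-2; chr2:28392448-28417317, plus strand) encodes the nearest relative of FOSL1, and its normalized counts rose from 1051, 1049 and 1155 with DMSO to 5859, 6622 and 6663 with MAPKi. This is the largest rise among the 10 genes, with a log2 fold change of 2.56 (standard error 0.067, adjusted p = 2.3e-09 in edgeR). An antisense RNA, FOSL2-AS1, overlaps FOSL2 in the annotation, and the strand setting of the counting is not given in the sources used here, so reads of both strands cannot be told apart. FOSB (chr19:45467995-45475179, plus strand) was the lowest FOS gene in counts, with 59.8, 58.8 and 67.8 normalized counts with DMSO and 90.5, 97.9 and 64.3 with MAPKi. These groups overlapped, and its log2 fold change of 0.43 was not called (95% interval -0.019 to 0.89, adjusted p = 0.0726 in edgeR), but it was called without MAPKi replicate 3 (0.60, edgeR adjusted p = 0.0202).

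Of the JUN genes, which encode the partners of FOS proteins, JUN changed most with MAPKi. JUN (chr1:58776845-58784048, minus strand) had 442, 487 and 545 normalized counts with DMSO and 1411, 2403 and 2331 with MAPKi. MAPKi replicate 1 was the lowest of its group but lay above all DMSO libraries, with a log2 fold change of 2.06 (standard error 0.19, adjusted p = 6.6e-06 in edgeR). JUNB (chr19:12791486-12793315, plus strand), whose protein often counteracts JUN, rose from 2028, 1990.0 and 2245 to 4312, 4826 and 4812 normalized counts. This was a log2 fold change of 1.15 (standard error 0.063, adjusted p = 1.8e-07 in edgeR) with no overlap between groups. HOOK2 overlaps the span of JUNB and had 124 to 510 raw counts per library, fewer than JUNB in each. JUND (chr19:18279694-18281622, minus strand), which is known to be expressed in most cells without stimulation, had 2090.3, 2259.5 and 2343 normalized counts with DMSO and 2306, 2302 and 2327 with MAPKi. The MAPKi libraries lay within the range of the DMSO libraries, and the log2 fold change was 0.051 (95% interval -0.058 to 0.16, adjusted p = 0.352 in edgeR). After a correction for GC content, library by library, the log2 fold change of JUND was -0.17, edgeR adjusted p = 0.0211, so its sign and call depend on this correction. JUND has the highest GC content of the 10 genes, 69.9% over its exons.

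All 3 EGR genes fell with MAPKi. EGR1 (chr5:138465479-138469303, plus strand), the factor most often used as a readout of ERK activity, had 713, 649 and 666 normalized counts with DMSO and 34.97, 38.3 and 46.2 with MAPKi. The drop was from 676 ± 32.8 (SD, n = 3) to 39.8 ± 5.76 (SD, n = 3), a log2 fold change of -4.07 (standard error 0.11, adjusted p = 3.0e-09 in edgeR). This is the promoter with 2 CArG boxes printed above. EGR2 (chr10:62811996-62819167, minus strand), known for its role in Schwann cells and lymphocytes, was low in these cells. Raw counts of EGR2 were 30, 28 and 42 in the DMSO libraries and 3, 1 and 0 in the MAPKi libraries. Set against a floor of 3 counts per library, EGR2 was at least 11.1-fold lower with MAPKi (adjusted p = 6.7e-05 in edgeR). EGR3 (chr8:22687659-22693480, minus strand), which is known as a gene that follows EGR1 and antigen receptor signals, fell from 1004, 1155 and 1025 to 191, 198 and 239 normalized counts. Its groups did not overlap and it had a log2 fold change of -2.34 (standard error 0.098, adjusted p = 3.1e-08 in edgeR). A non-coding gene, LOC107986924, overlaps EGR3 and had 0 to 14 raw counts per library.

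The second comparison asks how the same factors differed without glutamine. FOSB, FOSL1, JUN, EGR1, EGR2 and EGR3 rose, so 6 of the 10 genes were higher and 0 were lower at an edgeR adjusted p of 0.05 or less. Of all 12510 tested mRNAs, 9.74% were higher and 7.95% were lower at this limit. Against a 1.5-fold change in edgeR, 5 genes passed (all but FOSB), where 3.50% of all mRNAs were higher and 1.92% were lower. An unadjusted p under 0.05 was reached by the same 6 and by none that was lower. The share of all mRNAs at that unadjusted p was not counted. DESeq2 also called 6 of the 10 genes higher and 0 lower, and it called 1736 of all mRNAs higher and 1601 lower. By the labels, CTRL and Gln-depleted libraries of the same replicate share a number in their titles and an experimental batch. With the replicate number as a block, 3201 of the 12510 mRNAs were higher and 2867 lower instead of 1219 and 994. The background was thus larger in this fit. The same 6 genes were called, here all 6 beyond 1.5-fold. How many of all mRNAs passed 1.5-fold with the block was not counted. In this fit the edgeR adjusted p was 0.0054 for FOSB, 0.0076 for EGR1 and 0.0041 for EGR2. The fits below that leave out 1 library were made without this block. Replicates of the Gln depletion experiment differed more than those of the MAPKi experiment. Without CTRL replicate 2 or without CTRL replicate 3, 3 genes (FOSL1, JUN and EGR3) were called.

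FOSL1 was the FOS gene with the largest change in this experiment. Its normalized counts were 1236, 1897 and 3723 in CTRL medium and 8354, 14683 and 9350.1 in Gln-depleted medium. The CTRL libraries differed 3-fold among themselves, yet all lay below the lowest Gln-depleted library, and FOSL1 had a log2 fold change of 2.24 (standard error 0.42, adjusted p = 0.0111 in edgeR). Its log2 ratio in experimental batch 1, with 1 library per group and thus no test, was 2.76, and in experimental batch 2 it was 2.10, edgeR adjusted p = 0.00717. FOSB rose from 138, 78.7 and 123 to 302, 412 and 245 normalized counts, a log2 fold change of 1.496 (standard error 0.32, adjusted p = 0.0180 in edgeR). In batch 1 the log2 ratio of FOSB was 1.13 and in batch 2 it was 1.70, edgeR adjusted p = 0.0130, whereas the call was lost without CTRL replicate 2 (1.29, edgeR adjusted p = 0.0670), without CTRL replicate 3 (1.56, edgeR adjusted p = 0.0578) or without Gln-depleted replicate 2 (1.27, edgeR adjusted p = 0.0777). FOS had normalized counts of 1489.8, 626 and 611 in CTRL medium and 682, 700.1 and 527 in Gln-depleted medium. CTRL replicate 1 stood above all other libraries, and the log2 fold change of FOS was -0.51 with a 95% interval from -1.34 to 0.31 (adjusted p = 0.347 in edgeR). FOS had a log2 ratio of -1.13 in batch 1 and -0.011 in batch 2. FOSL2, with 1176, 860.4 and 944 normalized counts in CTRL medium and 1294, 983 and 748 in Gln-depleted medium, overlapped between groups. Its log2 fold change was 0.022 with a 95% interval from -0.55 to 0.59 (adjusted p = 0.959 in edgeR).

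JUN was the JUN gene that passed the test in both experiments. Its normalized counts rose from 361, 252 and 291 in CTRL medium to 737, 1261 and 802 in Gln-depleted medium, a log2 fold change of 1.63 (standard error 0.27, adjusted p = 0.00772 in edgeR). The groups did not overlap, and JUN had a log2 ratio of 1.03 in batch 1 and 1.93, edgeR adjusted p = 0.00368 in batch 2. JUNB had 2163, 1218 and 1630.2 normalized counts in CTRL medium and 2482, 2178 and 1668 in Gln-depleted medium, with a log2 fold change of 0.34 (95% interval -0.26 to 0.93, adjusted p = 0.394 in edgeR). JUND had 1627, 1449.9 and 2231 in CTRL medium and 1186, 1195 and 2022 in Gln-depleted medium, with a log2 fold change of -0.27 (95% interval -0.91 to 0.37, adjusted p = 0.528 in edgeR). In both genes the groups overlapped. Between libraries of the same number, JUND was lower in 3 of 3 pairs (log2 ratios -0.46, -0.28 and -0.14) and JUNB higher in 3 of 3 (0.20, 0.84 and 0.033). With the replicate block, the log2 fold change was -0.29 for JUND (standard error 0.12, edgeR adjusted p = 0.0824) and 0.35 for JUNB (standard error 0.17, edgeR adjusted p = 0.120), so neither was called. JUND was higher in replicate 3 than in replicates 1 and 2 of both groups.

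The EGR genes rose together in Gln-depleted cells, the reverse of their direction with MAPKi. EGR1 had normalized counts of 2256, 729 and 1065 in CTRL medium and 3601, 9187 and 6554 in Gln-depleted medium, with a log2 fold change of 2.26 (standard error 0.48, adjusted p = 0.0173 in edgeR). CTRL replicate 1 and Gln-depleted replicate 1, from the same experimental batch, were the closest pair, with a log2 ratio of 0.67, and in batch 2 the log2 fold change was 3.13, edgeR adjusted p = 0.00144. The call of EGR1 was lost without CTRL replicate 2 (1.96, edgeR adjusted p = 0.0534), CTRL replicate 3 (2.11, edgeR adjusted p = 0.0640), Gln-depleted replicate 2 (1.91, edgeR adjusted p = 0.0640) or Gln-depleted replicate 3 (2.25, edgeR adjusted p = 0.0539). EGR2 was again the lowest, with 42.3, 15.9 and 18.4 normalized counts in CTRL medium and 117, 326 and 118 in Gln-depleted medium. Gln-depleted replicate 2 was far above the other libraries, and EGR2 had a log2 fold change of 2.87 (standard error 0.57, adjusted p = 0.0138 in edgeR). Without Gln-depleted replicate 2 the log2 fold change was 2.203, edgeR adjusted p = 0.0467. The call was lost without CTRL replicate 2 (2.63, edgeR adjusted p = 0.0552) or CTRL replicate 3 (2.68, edgeR adjusted p = 0.0546). In batch 1 the log2 ratio of EGR2 was 1.46, and in batch 2 it was 3.69, edgeR adjusted p = 0.00482. EGR3 rose from 1264, 1276 and 2261 to 4291, 5727 and 4189 normalized counts. This was a log2 fold change of 1.57 (standard error 0.28, adjusted p = 0.00980 in edgeR), with a log2 ratio of 1.76 in batch 1 and 1.49, edgeR adjusted p = 0.0112 in batch 2, and it was called without each library in turn.

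**Figure D2:**
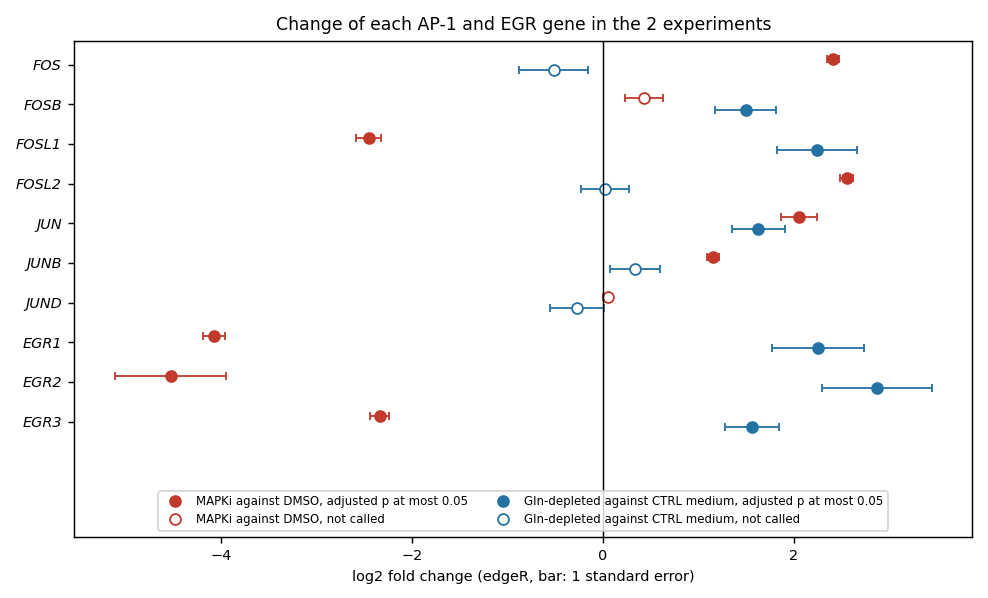
Log2 fold change of each AP-1 and EGR gene (horizontal axis) with MAPKi against DMSO (red) and in Gln-depleted against CTRL medium (blue), each from 3 against 3 libraries. Bars are 1 standard error, derived from the edgeR test statistic, and filled points mark an adjusted p of 0.05 or less. FOSL1, EGR1, EGR2 and EGR3 lie left of 0 in red and right of 0 in blue, and JUN lies right of 0 in both. The red point of EGR2 rests on 0 to 3 counts in the MAPKi libraries.

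Whether the response to MAPKi differed from that to Gln depletion was tested as the difference of both log2 fold changes over the 12 libraries. It differed in 7 of the 10 genes, and in 40.3% of all 12633 mRNAs tested. FOSL1, EGR1, EGR2 and EGR3 had a difference below 0, since each fell with MAPKi and rose without glutamine. For EGR1 this difference was -6.28 (standard error 0.61, adjusted p = 1.4e-05 in edgeR), for FOSL1 -4.65 (standard error 0.50, adjusted p = 2.7e-05 in edgeR) and for EGR3 -3.86 (standard error 0.31, adjusted p = 3.7e-06 in edgeR). EGR2 also differed (adjusted p = 1.0e-04 in edgeR), but its MAPKi libraries hold too few counts for a value. FOS and FOSL2, which rose with MAPKi alone, differed by 2.98 (standard error 0.42, adjusted p = 1.8e-04 in edgeR) and 2.58 (standard error 0.27, adjusted p = 2.3e-05 in edgeR). JUNB differed by 0.87 (standard error 0.28, adjusted p = 0.0284 in edgeR), and this call was lost in 6 of the 12 fits that left out 1 library, namely without MAPKi replicate 2 (0.84, adjusted p = 0.0620 in edgeR), MAPKi replicate 3 (0.84, adjusted p = 0.0629), DMSO replicate 1 (0.85, adjusted p = 0.0612), DMSO replicate 2 (0.83, adjusted p = 0.0670), CTRL replicate 1 (0.62, adjusted p = 0.0510) or Gln-depleted replicate 3 (0.71, adjusted p = 0.0636). For JUN, which rose in both, the difference was 0.48 (standard error 0.35, adjusted p = 0.299 in edgeR), so a difference in its response was not detectable at this spread. JUND differed by 0.37 (standard error 0.29, adjusted p = 0.344 in edgeR), and with the replicate block by 0.39, adjusted p = 0.0193 in edgeR, which is past the limit, as it was without Gln-depleted replicate 3 (0.66, adjusted p = 0.0341 in edgeR). FOSB differed by -1.01 (standard error 0.38, adjusted p = 0.0504 in edgeR), next to the limit. It passed with DESeq2 (adjusted p = 0.0275), with DESeq2's size factors (adjusted p = 0.0443 in edgeR), without CTRL replicate 1 (adjusted p = 0.0269 in edgeR) and without Gln-depleted replicate 3 (adjusted p = 0.0292 in edgeR).

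The makeup of each family was described by the share of each gene in the family's normalized counts per kilobase of exon, since longer genes collect more reads. FOSL1 made up 59.1% ± 4.88 (SD, n = 3) of the FOS family with DMSO and 4.67% ± 0.329 with MAPKi. In the MAPKi libraries it was 4.38%, 4.61% and 5.03%. Conversely, the share of FOS went from 24.2% ± 3.13 to 55.3% ± 0.721 and that of FOSL2 from 15.6% ± 1.88 to 39.4% ± 0.540. Per kilobase of exon FOSL1 led the family with DMSO and FOS with MAPKi. Which gene led with MAPKi depends on the length used, since per kilobase of coding sequence FOSL2 had 63.0% and FOS 33.8% with MAPKi, against 34.99% and 20.7% with DMSO, when FOSL1 had 42.3%. Per kilobase of exon, the summed level of the family was 979 ± 81.8 per kilobase with DMSO and 2262 ± 139 with MAPKi. In the Gln depletion experiment the share of FOSL1 was 49.9%, 75.2% and 85.1% in CTRL medium and 90.8%, 94.7% and 94.0% in Gln-depleted medium. The summed level of the family was 1655 ± 575 and 6119 ± 1823 per kilobase, in this order. A two-sided exact permutation test gave p = 0.1 for the share of FOSL1 in either experiment, the smallest p that 3 against 3 libraries allow. Without CTRL replicate 1, the difference in the share of FOSL1 with Gln depletion was 13.03 rather than 23.1 percentage points.

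**Figure D3:**
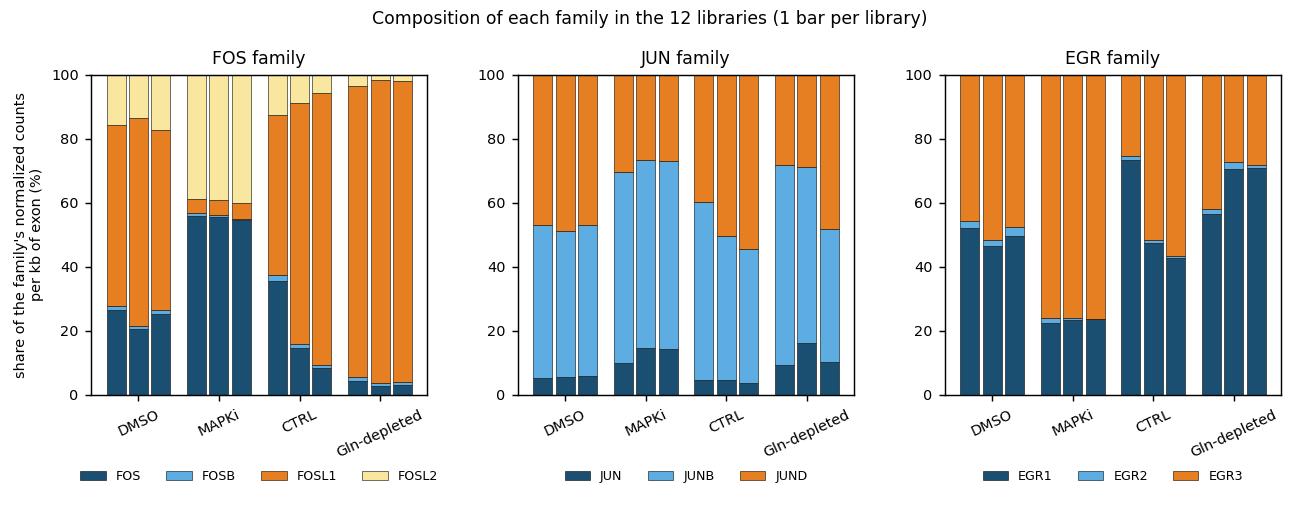
Composition of the FOS, JUN and EGR families in the 12 libraries. Each bar is 1 library, and its parts are the share (%) of each gene in the family's normalized counts per kilobase of exon. FOSL1 (orange, left panel) takes 4.38% to 5.03% of the FOS family with MAPKi and 90.8% to 94.7% in Gln-depleted medium.

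JUNB and JUND took most of the JUN family in each library. The share of JUN was 5.57% ± 0.274 (SD, n = 3) with DMSO and 13% ± 2.71 with MAPKi, and 4.38% ± 0.526 in CTRL and 11.9% ± 3.71 in Gln-depleted medium. Both shifts went the same way in 3 of 3 libraries (exact permutation test, two-sided p = 0.1 in each experiment, the smallest possible). JUND went from 47.5% ± 1.21 to 27.9% ± 2.08 with MAPKi, while its own count was not called. In the EGR family, per kilobase of exon, EGR1 and EGR3 had like shares with DMSO (49.5% ± 2.78 and 48.4% ± 2.99), and EGR3 led with MAPKi (23.2% ± 0.749 and 76.1% ± 0.228; exact permutation test for EGR1, two-sided p = 0.1, the smallest possible). Per kilobase of coding sequence, EGR3 led already with DMSO (67.5%, against 30.7% for EGR1) and had 87.6% with MAPKi, against 11.9% for EGR1. The summed level of the EGR family was 436 ± 8.51 per kilobase with DMSO and 54.7 ± 6.58 with MAPKi. It was 755 ± 248 in CTRL and 3047 ± 1064 in Gln-depleted medium, where the share of EGR1 did not differ beyond the spread (54.5% ± 16.4 and 65.9% ± 8.16, exact permutation test, two-sided p = 0.4). The difference in this share went from 5.57 percentage points without CTRL replicate 3 to 20.8 without CTRL replicate 1. Shares and sums depend on the length used, and with the coding sequence as length FOSL1 had 42.3% with DMSO and 2.37% with MAPKi.

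Ordered by level per kilobase of exon, JUND (1156 ± 66.7, SD, n = 3) and JUNB (1141 ± 75.0) came first with DMSO, and their libraries overlapped. FOSL1 followed with 582 ± 98.4. FOS, EGR1 and EGR3 were next, with ranges that overlapped between 199 and 249, then FOSL2 and JUN, which also overlapped, and FOSB and EGR2 were lowest (11.2 ± 0.889 and 9.20 ± 1.77 per kilobase). With MAPKi the order was JUNB (2541 ± 160.1), FOS (1249.6 ± 66.8), JUND (1198 ± 6.93), FOSL2 (891 ± 63.3) and JUN (565 ± 153). FOSL1, EGR3, FOSB, EGR1 and EGR2 came after these, from 106 ± 12.7 down to 0.379 ± 0.421 per kilobase. In this group FOS and JUND overlapped, as did FOSB and EGR1. In CTRL medium FOSL1 (1211 ± 683), JUND (917 ± 212) and JUNB (913 ± 259) came first and overlapped, while EGR2 (6.89 ± 3.94) was last. EGR1 (430 ± 256) was next, and its highest CTRL library (719) lay above the lowest of FOSL1 (655) and of JUNB (666). In Gln-depleted medium FOSL1 (5721 ± 1803) stood above all other genes in each library, followed by EGR1 (2055 ± 891) and JUNB (1153 ± 225), whose ranges overlapped. This order depends on the length used. Per kilobase of coding sequence, FOSL2 came first with MAPKi, with 5990.4, 6771 and 6813 in the 3 libraries, above JUNB (4142, 4636 and 4623) and FOS (3285, 3648 and 3545) in each, and FOS lay above JUND. FOSL1 remained first in each Gln-depleted library with this length, and EGR3 and EGR1 followed with overlapping ranges (3608 to 4933 and 2211 to 5639).

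Genes that act around AP-1 and EGR were then described by lists. In the MAPKi experiment, 38.9% of all tested mRNAs were lower and 39.0% were higher, with a median log2 fold change of 0.0074. Among 10 relatives of the basic leucine zipper family, 3 were lower and 5 were higher (median log2 fold change 0.22). ATF3, a stress-induced partner of JUN, and MAF rose, with log2 fold changes of 2.36 and 2.28, and BATF3 and MAFF fell, with -2.23 and -1.15. ATF3 had a normalized count of 318 ± 49.98 with DMSO and 1628 ± 209 with MAPKi (SD, n = 3 each). Of 6 genes for SRF and its cofactors, 2 were lower and 2 were higher (median -0.0036). The ternary complex factors ELK3 (-1.21) and ELK1 (-0.49) fell, whereas ELK4 (0.27) and MRTFB (0.15) rose slightly on the log2 scale. Of the 2 tested EGR partners, the corepressor NAB1 fell (-0.52). Among 9 kinases that act on AP-1, 4 were lower and 2 were higher, with RPS6KA3, an ERK-activated kinase that phosphorylates FOS, changed most (-1.11). The 4 ubiquitin ligases of JUN had 1 lower, FBXW7 (-0.29), and 1 higher, ITCH (0.15).

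Of 24 other immediate-early genes, 13 were lower and 9 were higher with MAPKi (median log2 fold change -0.23). MYC fell by 4.06 on the log2 scale, from a normalized count of 1656 ± 120.1 to 99.8 ± 14.3 (SD, n = 3 each). The matricellular genes CCN1 and CCN2 fell as well, with -2.67 and -2.61, while NR4A3, an orphan nuclear receptor, rose by 2.58. Of 11 tested genes known as AP-1 targets, 3 were lower and 7 were higher (median 0.35). MMP2 and SPP1, which encode a matrix protease and osteopontin, rose by 3.00 and 2.28 on the log2 scale. CCND1 (cyclin D1) and HMGA1 fell, with log2 fold changes of -2.87 and -1.79. Among 8 tested genes known as EGR targets, 5 were lower and 1 was higher (median -0.66). GDF15 (-1.78) and F3 (-1.998), the gene of tissue factor, fell, and TGFB1 (0.93) rose. The 10 MAPK output genes, which follow ERK activity, were all lower (median -4.64). DUSP6 had a normalized count of 4592 ± 167 with DMSO and 6.10 ± 3.61 with MAPKi, and SPRY4, ETV5 and ETV4 had log2 fold changes of -7.46, -6.43 and -5.99. Each gene named here had an edgeR adjusted p of 0.05 or less and groups that did not overlap.

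**Figure D4:**
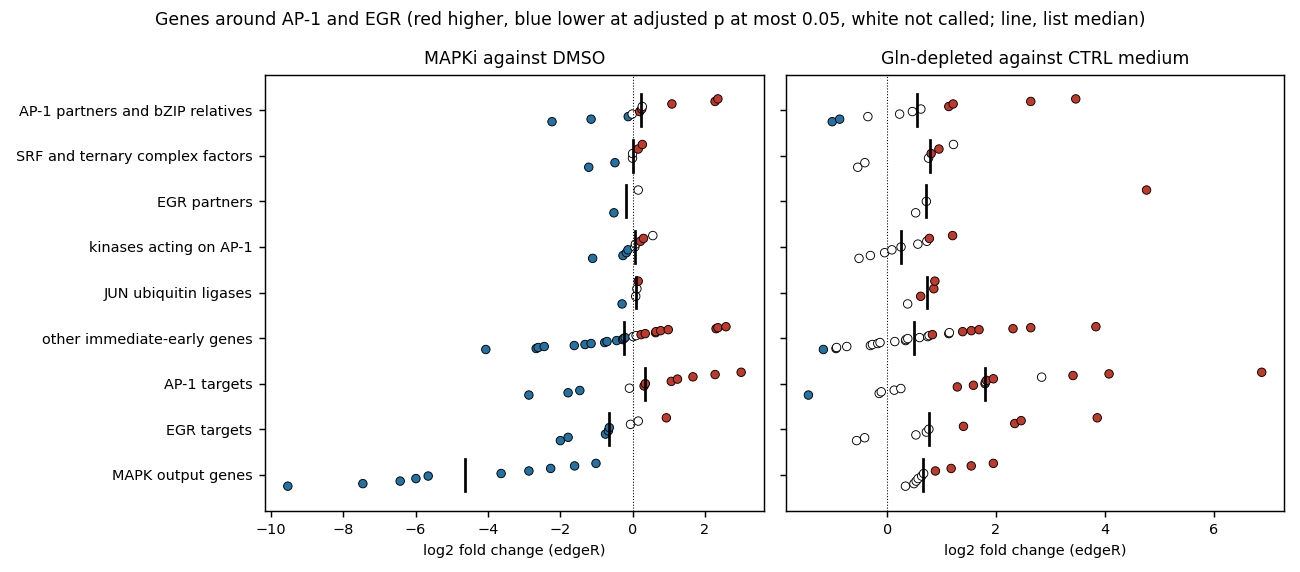
Log2 fold change (horizontal axis) of the tested genes of 9 lists, with MAPKi against DMSO (left) and in Gln-depleted against CTRL medium (right). Each point is a gene, red where higher and blue where lower at an edgeR adjusted p of 0.05 or less, white where not called, and the vertical line is the median of the list. The MAPK output genes lie left of 0 with MAPKi, all 10 called, and right of 0 in Gln-depleted medium, 4 of 10 called.

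In the Gln depletion experiment the median log2 fold change over all tested mRNAs was 0.016, with 9.74% higher and 7.95% lower. Among the 10 relatives of the basic leucine zipper family, 4 were higher and 2 lower (median log2 fold change 0.54). JDP2, a repressor that pairs with JUN, rose from a normalized count of 54.9 ± 17.3 to 608 ± 180.3 (SD, n = 3 each), a log2 fold change of 3.47. ATF3 (2.64), MAFG (1.21) and MAFF (1.13) also rose. SRF (0.81) and ELK1 (0.95) were the 2 of 6 SRF-related genes called, both higher. The other EGR gene, EGR4, had raw counts of 0, 5 and 1 in CTRL medium and 67, 66 and 24 in Gln-depleted medium (log2 fold change 4.77, which rests on few counts). Of the 9 kinases, RPS6KA2 (1.20) and MAPK8 (0.78), the gene of JNK1, were higher and 0 were lower. The ligases ITCH (0.88), DET1 (0.86) and COP1 (0.62), 3 of 4, were higher.

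Of 24 other immediate-early genes, 8 were higher and 2 were lower in Gln-depleted cells (median log2 fold change 0.49). KLF4, a zinc finger factor, went from a normalized count of 407 ± 10.4 to 5813 ± 1749 (SD, n = 3 each), and ARC and MCL1 had log2 fold changes of 2.31 and 1.69. Of 15 tested AP-1 targets, 8 were higher and 1 was lower (median 1.80). IL11, a cytokine, had a normalized count of 10.54 ± 2.32 in CTRL medium and 1255 ± 923 in Gln-depleted medium. VEGFA and CCND1 rose by 3.42 and 1.95 on the log2 scale. Of 9 EGR targets, 4 were higher and 0 were lower (median 0.77). These were the growth factor genes PDGFB (3.86) and PDGFA (2.35), GDF15 (2.46) and THBS1 (1.40). Of the 10 MAPK output genes, 4 were higher and 0 lower (median 0.65), with log2 fold changes of 1.95 for CCND1, 1.55 for EPHA2, 1.18 for DUSP6 and 0.89 for SPRY4. Genes named here had an edgeR adjusted p of 0.05 or less and no overlap between groups. CCND1 belongs to the AP-1 targets and to the MAPK output genes, and ATF3 and MAFF to 2 lists as well.

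Patterns across the 12 libraries were compared with those of FOSL1 and EGR1 by Pearson's r of log2 CPM, over 10745 protein-coding genes whose normalized counts averaged 100 or more. MEX3C (r = 0.995), KCMF1 (r = 0.992) and TBPL1 (r = 0.991) were most like FOSL1. They moved less, with log2 fold changes of -1.32, -0.55 and -0.90 with MAPKi and of 1.28, 0.67 and 0.77 with Gln depletion, against -2.46 and 2.24 for FOSL1. XPO7 (r = 0.991), MYEOV (r = 0.990) and FYN (r = 0.990) were most like EGR1. MYEOV had 0 counts in each MAPKi library and 168 to 238 raw counts in the DMSO libraries. Set against a floor of 3 counts per library, it was at least 64.5-fold lower with MAPKi. Its log2 fold change with Gln depletion was 2.32. XPO7 and FYN had log2 fold changes of -0.59 and -0.86 with MAPKi and of 0.32 and 0.63 with Gln depletion. The 12 points fall into 4 groups and share sequencing batches, so these values describe the pattern only.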

How the data were processed

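The data are RNA-seq libraries of A375 cells, 12 in number. The authors trimmed reads with fastp 0.20.1, aligned them to GRCh38.p13 with HISAT2 2.2.1 and counted reads on exons with htseq-count (HTSeq 0.13.5, NCBI annotation). The deposited values are raw counts per gene symbol. The strand setting is not given in the sources used here. All value columns were used, and 17889 of the 44659 genes had fewer than 2 reads over the libraries.

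Symbols were matched to RefSeq for gene type, 36524 as written and 524 through an older symbol, and coordinates and exon lengths came from GENCODE on GRCh38. Each experiment was fitted with edgeR 4.0.16 in R 4.3.3 (TMM factors from 0.926 to 1.08, quasi-likelihood test, treatment as the only term) over protein-coding genes whose normalized counts averaged 10 or more, and p-values were Benjamini-Hochberg adjusted over all genes tested (limit 0.05). A 1.5-fold change was tested with glmTreat. The difference between experiments was a contrast over the 12 libraries. Shares were compared by exact permutation tests. DESeq2 1.42.0, the tool of the authors, served as an alternative. With counts of this depth the spread between replicates limits the precision. The floor for a group with at most 3 counts per library was 3 counts per library, which is a setting and not a confidence limit.

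Same-numbered libraries of the Gln depletion experiment deviated together from their group means (correlations across genes of 0.574, 0.428 and 0.379), and by the labels replicate 1 of both groups shares experimental batch 1 and the others share experimental batch 2, so a replicate block was fitted as an alternative. Values within a batch are given beside the results. Pair ratios used a pseudocount of 0.5 normalized counts.

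The 10 genes and all lists were chosen with earlier results of these data known. Genes named are the 10, up to 4 per list with the largest absolute log2 fold change among those called without overlap between groups, and the 3 most like FOSL1 and EGR1. Genes with further copies in the table were left out of the list counts, and some genes that this rule names are not reported here. The procedure was tested on simulated counts with the same dispersion for every gene and without batches or pairing. That test therefore does not cover the spread and pairing seen in the Gln depletion experiment. Figures were drawn with matplotlib 3.10.9 in Python 3.11.15 (numpy 2.4.6, pandas 2.3.3).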

Additional observations from a re-analysis of the deposited data

How the results depend on the processing

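With MAPKi, the calls of the 8 changed genes and their direction were the same under each alternative run in which they were tested. A mean count of at least 100 left EGR2 and FOSB out of the test. The numbers of all mRNAs called moved in the fit of all 12 libraries, to 3166 lower and 3095 higher with MAPKi. In the Gln depletion experiment they were 2713 lower and 2482 higher in that fit, 199 and 396 at an adjusted p of 0.01, 2867 and 3201 with the replicate block, 1947 and 1910 with the GC correction, 3183 and 2992 with the replicate block and GC correction, 2143 and 2219 in experimental batch 2 alone, and 1601 lower with DESeq2. Leaving out 1 library gave from 252 to 1427 lower and from 484 to 1321 higher mRNAs. Of the 10 genes, from 3 to 6 were then higher, and from 0 to 5 were beyond 1.5-fold, with 0 without CTRL replicate 2, Gln-depleted replicate 2 or Gln-depleted replicate 3 and 2 without CTRL replicate 3. At an adjusted p of 0.01, 2 of the 10 genes were higher, and against a 2-fold change 0 were.

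Over these alternatives, the sign of the log2 fold change turned for FOSL2 and FOS with Gln depletion and for JUND with MAPKi. None of these 3 changes was called in the main fit. For FOSL2 with Gln depletion it was -0.016 in the fit of all 12 libraries, -6.94e-06 with the replicate block, -0.059 in experimental batch 2 alone, and from -0.20 to 0.17 when 1 library was left out. For FOS with Gln depletion it went from -0.73 to 0.041 when 1 library was left out, the latter without CTRL replicate 1. For JUND with MAPKi it was -0.17 with the GC correction and -0.17 with the replicate block and GC correction (edgeR adjusted p = 0.0211 and 0.00499). The cause was not tested. With the coding sequence as length, differences in shares were -40.0 percentage points for FOSL1, 12.1 for JUN and -18.9 for EGR1 with MAPKi, and 12.3 for JUN with Gln depletion, where other lengths enter by construction.

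In the MAPKi experiment, MAPKi and DMSO libraries of the same replicate share a number in their titles. They deviated together weakly, with correlations across genes of 0.0629, 0.0607 and 0.0583. Libraries of different numbers had correlations from -0.0346 to -0.0259. The main fit left this pairing out, and the replicate block gave the same 8 calls there. In the Gln depletion experiment the replicate block changed no call of the 10 genes against no change, added FOSB beyond 1.5-fold, and added JUND to the genes that differed between experiments (0.39, edgeR adjusted p = 0.0193). Over the alternatives, 155 log2 fold changes of single genes with MAPKi, 150 with Gln depletion and 138 differences between the experiments kept their direction and call. With MAPKi, 2 others turned in sign and 1 gained a call. With Gln depletion, 7 others turned in sign and 13 lost their call. Of the other differences, 6 lost and 6 gained a call.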
